A study of Drosophila melanogaster with 36 samples.

Results

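Heads of 2 fly lines that carry an expanded polyglutamine (polyQ) form of Atrophin, called A66QC and A75QN, were compared at day 0, before the transgene was induced. The members are the 6 arrays whose titles give the genotype as polyQ Atro A66QC or A75QN and the day as 0, 3 for each line, out of 36 arrays in the series. The series measured 4 genotypes at days 0, 2 and 14 with 3 arrays in each of 12 groups. Every line carries the GMR-Gal4 driver, which acts in the eye, together with a temperature-sensitive Gal80 that represses Gal4 at low temperature. Control flies carry only these, the Atro line adds a wild-type Atrophin transgene, and A66QC and A75QN add transgenes with a polyQ expansion. Flies developed at 18 °C, were collected 0 to 48 hours after eclosion, and at day 0 were killed at once. Day 2 and day 14 flies had been kept at 29 °C. Each RNA sample came from a pool of 20 heads. Nothing in the labels states that the replicates were raised apart, and the p-values therefore cover the spread among these RNA samples, which may be technical. The sex of the flies, the hour of the day at which they were collected and the number of independent insertions behind each line are not given in the labels used here.

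The comparison asks how far the polyQ stocks differ before the shift to 29 °C, as the baseline on which the later days stand. Several processes are active in a fly head at this age. After eclosion the cuticle is still being laid down and hardened: epidermal cells secrete chitin and cuticle proteins, the tracheae and muscle attachments mature, and this programme then declines. The circadian clock cycles in neurons, glia and photoreceptors, with period (per), timeless (tim) and vrille (vri) transcripts rising and falling over each day. Cytochrome P450 enzymes, glutathione transferases and UDP-glycosyltransferases modify toxins, hormones and pheromones, and their levels differ widely between fly stocks. Toll and Imd signalling in fat body and haemocytes controls antimicrobial peptides.

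The values are log2 expression levels, 1 per probe set and array, as deposited. Array medians lay between 6.34 and 6.40, and a level at or close to 6.40 is called near background. Of the 6 arrays, A66QC replicate 2 had the lowest spread over probe sets, with an SD of 1.448 against 1.498 to 1.568 on the other 5, and Control replicate 1 of day 0 likewise lay lowest in its group, at 1.504 against 1.583 and 1.591. The pairwise r across probe sets was 0.9954 to 0.9982 within the lines and 0.9910 to 0.9942 between them. The 3′ minus 5′ difference of GAPDH, a measure of RNA integrity, was 1.56 to 1.74 in A66QC and 1.50 to 1.64 in A75QN, so the lines overlapped. The arrays read as heads: the 24 photoreceptor genes averaged 10.42 to 10.64 in A66QC and 10.52 to 10.59 in A75QN, while 27 testis and sperm genes averaged 5.98 to 6.12 over both lines and 25 gut genes 6.04 to 6.14. In bulk RNA, fewer cells of a type and less RNA per cell cannot be told apart.

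The gene of the transgenes, Gug, which encodes Atrophin, a transcriptional corepressor, did not separate the lines. Its level was 8.63, 8.53 and 8.91 in A66QC and 8.71, 8.62 and 8.89 in A75QN. The difference of -0.05 (SE 0.11) did not pass (adjusted p = 0.909, limma). Both polyQ lines lay under Control, at 8.95, 9.14 and 9.18, by -0.40 for A66QC (adjusted p = 0.0154, limma) and by -0.35 for A75QN (adjusted p = 0.0476). Whether this probe set reads the transgenes was not tested.

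At day 0 the lines already differed at 1128 of 18769 probe sets (6.01% called at an adjusted p below 0.05, limma). A66QC was higher at 544 of them (2.90% of those tested) and A75QN at 584 (3.11%). Counted as genes with 1 probe set each, 472 of 11982 were higher in A66QC and 463 in A75QN. Each list count below stands beside these. The differences were mostly small: the median size among called probe sets was 0.36 on the log2 scale, and a difference of at least 1 was reached by 11 probe sets higher in A66QC and 28 higher in A75QN. The 3 arrays of one line did not overlap those of the other at 3599 probe sets (19.2%), among them 533 and 569 of those called. The count rests in part on single arrays. It was 670 without A66QC replicate 1 and 721 without A75QN replicate 3, and without the arrays of outlying spread it was 2027, of which 67.6% were higher in A66QC against 48.2% as deposited.

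The largest differences in favour of A66QC were in 2 genes at which A75QN stood apart from the other 3 genotypes. Cyp6a17, a cytochrome P450 linked to temperature preference in flies, read 9.27, 9.05 and 9.32 in A66QC and 6.05, 7.40 and 7.65 in A75QN. The A75QN arrays were low and scattered, with 1 of them near background, while the Control and Atro arrays lay between 9.08 and 9.63. Cyp6a17 was thus 4.54-fold higher in A66QC (2.18 on the log2 scale, SE 0.24, adjusted p = 1.07e-07, limma). CG40485 read 11.07, 10.73 and 11.07 in A66QC and 8.94, 9.26 and 8.63 in A75QN, a 4.03-fold difference (adjusted p = 2.83e-12, limma). A second probe set of CG40485 gave -0.32, the opposite direction (adjusted p = 0.0266), so the direction for the gene is uncertain.

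The largest difference in favour of A75QN was in Tektin-C, a tektin that builds the microtubules of cilia and sperm tails. It read 8.51, 8.45 and 8.53 in A75QN but 6.34, 6.36 and 6.17 in A66QC, all near background. Control was likewise near background, at 6.31, 6.43 and 6.28, and Atro was high, at 8.31, 7.77 and 8.19. The 4.63-fold difference between the polyQ lines (SE 0.10 on the log2 scale, adjusted p = 3.95e-16, limma) is measured against a level near background. Tektin-C was the only 1 of the 27 testis and sperm genes to be called in either direction.

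Besides Tektin-C and Lsp2, the 12 largest differences in favour of A75QN included 5 cuticle protein genes, namely Cpr62Bc, Cpr97Ea, Cpr92F, Vajk2 and Vajk3, and 5 genes known by number (CG12998, CG5172, CG13056, CG11413 and CG8736). Their folds ran from 2.39 in CG8736 to 3.82 in CG12998. CG12998 read 8.77, 8.71 and 8.42 in A75QN against 6.51, 7.01 and 6.58 in A66QC (adjusted p = 2.98e-08, limma). Lsp2, a storage protein made by the fat body, was the least even of the 12: A66QC read 7.76, 9.73 and 7.43 and A75QN 10.64, 10.22 and 9.87. The highest A66QC array came close to the lowest A75QN array, and the 3.83-fold difference (adjusted p = 0.0129, limma) did not pass without A66QC replicate 1, without A66QC replicate 3 or without A75QN replicate 1.

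**Figure D1:**
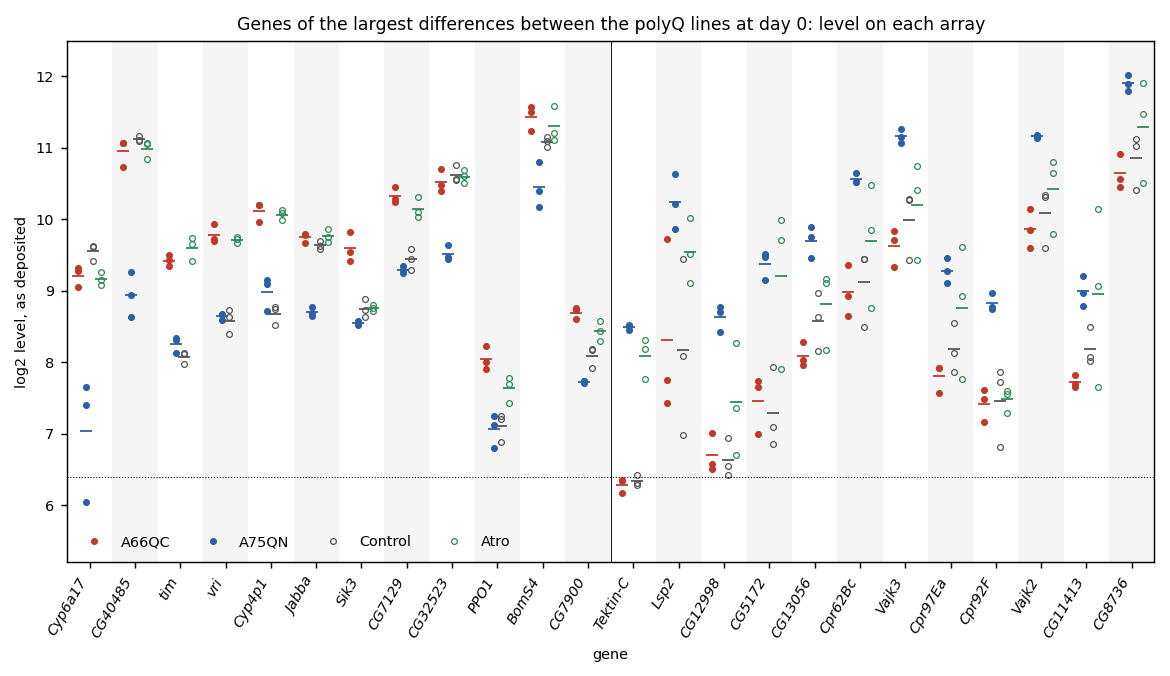
Level on each day 0 array (log2, as deposited) of the 12 genes with the largest differences in each direction. Points are arrays, short lines are means of 3 arrays, filled points are the polyQ lines, open points are Control and Atro, and the dotted line marks the highest array median, 6.40. A75QN stands apart for Cyp6a17 and CG40485, Sik3 is highest in A66QC, and Tektin-C is near background in A66QC and Control.

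Cuticle protein genes were the most numerous of the lists on the A75QN side. Of 109 measured, 24 were higher in A75QN and 2 (Cpr65Au and Cpr60D, named after their values were seen) higher in A66QC, where all genes gave 463 and 472 of 11982. The median difference over all 109 was only -0.01. Their median level was 6.20 in A66QC and 6.21 in A75QN, so most of the list lay near background, where a difference could not be seen. The 24 genes higher in A75QN differed by 0.25 to 1.59 on the log2 scale. Vajk3, a cuticle protein, read 11.26, 11.15 and 11.07 in A75QN and 9.34, 9.83 and 9.71 in A66QC (2.90-fold, adjusted p = 7.82e-06, limma). Its neighbours Vajk2 (2.46-fold, adjusted p = 1.32e-05) and Vajk1 (1.35-fold, adjusted p = 0.0255) were also higher in A75QN, Vajk1 from a level near background and named after its values were seen. Cpr62Bc, of the chitin-binding Cpr family, read 10.64, 10.53 and 10.53 in A75QN and 8.65, 9.36 and 8.92 in A66QC (3.00-fold, adjusted p = 3.74e-05, limma). Cpr64Aa was 2.35-fold higher in A75QN (adjusted p = 1.08e-09, limma), with all 3 A66QC arrays near background. At 23 of the 24 genes the arrays of the lines did not overlap, much as at 569 of all 584 probe sets called higher in A75QN. The count of cuticle genes was 20 to 23 when any 1 of the 6 arrays was left out.

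Of the tracheal genes, 4 were called. The 7 measured tracheal genes gave these 4 higher in A75QN, none higher in A66QC and a median of -0.57. All genes gave 463 and 472 of 11982. They were verm and serp, chitin deacetylases (1.89-fold and 1.81-fold, adjusted p = 0.000536 and 0.00228, limma), obst-A, a chitin-binding matrix protein (1.72-fold, adjusted p = 0.00216), and Gasp, another chitin-binding protein (1.48-fold, adjusted p = 0.0221). verm read 9.82, 9.45 and 9.49 in A75QN and 8.50, 8.81 and 8.70 in A66QC. The chitin synthase kkv (2.18-fold, adjusted p = 0.000148) and Cht7, of the chitinase family (2.19-fold, adjusted p = 1.68e-05), were also higher in A75QN. Gasp, kkv and Cht7 were named after their values were seen. The Control arrays gave 8.78, 9.35 and 9.22 for verm and the Atro arrays 9.62, 8.77 and 10.07, so Atro replicates at this day differed among themselves by more than 1 on the log2 scale.

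**Figure D2:**
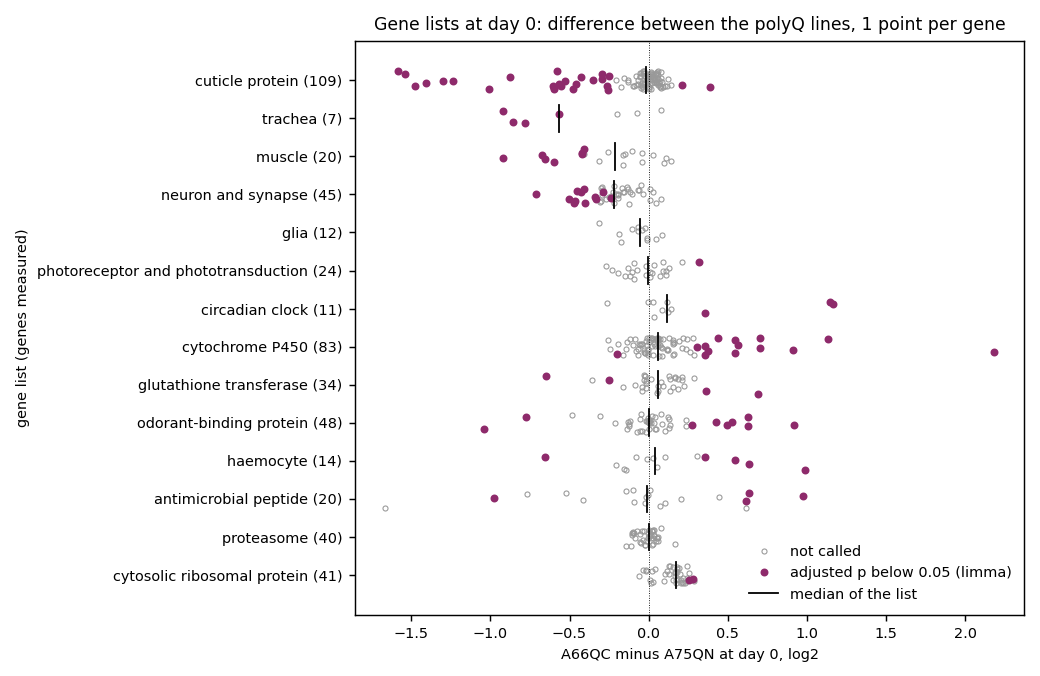
Difference between the polyQ lines at day 0 (A66QC minus A75QN, log2) for each measured gene of 14 lists, 1 point per gene. Filled points passed an adjusted p below 0.05 (limma), open points did not, and black bars are list medians. Cuticle, tracheal, muscle and neuronal genes that were called lie to the left, on the A75QN side, and most called P450 genes lie to the right.

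Eclosion age is not labelled more finely than 0 to 48 hours. The Control arrays enter the line comparison only through the shared estimate of spread. They give the direction in which head transcripts moved over the first 2 days, together with the shift to 29 °C. A probe set of low spread is more easily called in both comparisons, and the shares below do not allow for this. In Control 22.2% of probe sets changed from day 0 to day 2: 1998 rose (10.6%) and 2166 fell (11.5%). Of the 584 probe sets higher in A75QN, 267 fell in Control (45.7%) and 59 rose (10.1%). Of the 544 higher in A66QC, 104 fell (19.1%) and 158 rose (29.0%). Of the 24 cuticle genes higher in A75QN, 17 fell and none rose. Of all 109 measured, most of them near background in the polyQ lines at day 0, 23 fell and 4 rose. All 4 called tracheal genes fell, but so did all 7 measured. Vajk2 fell by 2.89 in Control on the log2 scale and Vajk3 by 2.79. Across the 1128 called probe sets, r between the line difference and the Control change was 0.33, and across all tested it was 0.21; these are descriptions over genes of the same arrays. Leaving out single arrays of the groups involved gave 36.2% to 47.5% for the A75QN side that fell. The part of eclosion age in the line difference was not tested.

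**Figure D3:**
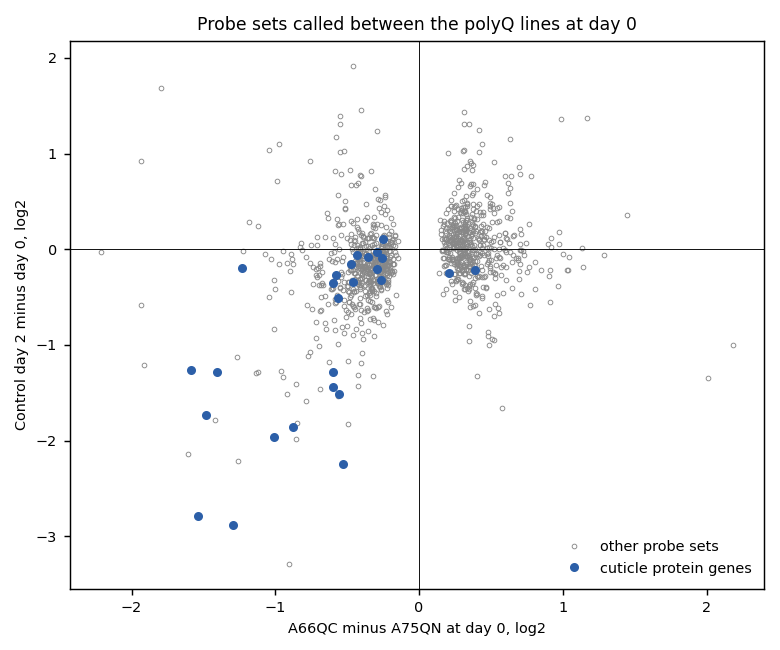
Each point is 1 of the 1128 probe sets called between the polyQ lines at day 0, with the line difference (A66QC minus A75QN, log2) on the horizontal axis and the Control change from day 0 to day 2 (log2) on the vertical axis. Filled points are cuticle protein genes. Of the 24 on the A75QN side, 17 fell in Control by an adjusted p below 0.05 and none rose.

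Called muscle genes were likewise higher in A75QN. Of 20 measured, 7 were higher in A75QN and none in A66QC, with a median of -0.21, where all genes gave 463 and 472 of 11982. TpnC41C, a troponin C, read 9.64, 9.82 and 9.74 in A75QN and 8.73, 8.72 and 8.99 in A66QC (1.89-fold, adjusted p = 4.40e-06, limma). Act87E, an actin (1.60-fold, adjusted p = 7.11e-05), and up, a troponin T (1.52-fold, adjusted p = 0.000688), showed the same direction. The mean level of the list was 9.93 to 10.12 in A66QC and 10.26 to 10.36 in A75QN, with Control between 10.05 and 10.43. Of the 7 genes, 5 fell in Control by day 2, where 15 of all 20 did. Without A75QN replicate 1 the count was 4.

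Neuronal and synaptic genes also leaned to A75QN, with 12 of 45 called there, none called in A66QC and a median of -0.22. All genes gave 463 and 472 of 11982. cac, the presynaptic calcium channel, read 9.89, 9.72 and 10.23 in A75QN and 9.07, 9.17 and 9.46 in A66QC (1.64-fold, adjusted p = 0.00016, limma), although another probe set of the gene, near background in both lines, gave 0.02. nAChRalpha7, an acetylcholine receptor subunit, was 1.42-fold higher in A75QN (adjusted p = 0.000761), as was Nrx-1, a synaptic adhesion protein (1.38-fold, adjusted p = 0.00221, a call lost without A75QN replicate 3). The pan-neuronal marker elav, named after its values were seen, read 8.76, 8.70 and 8.89 in A75QN and 8.45, 8.45 and 8.59 in A66QC and did not pass (adjusted p = 0.115, limma). This group depended on single arrays more than the cuticle genes did. The count was 3 without A66QC replicate 1, 6 without replicate 2, 7 without A75QN replicate 1 and 2 without A75QN replicate 3, but 16 without A66QC replicate 3, 22 under quantile normalization, 24 under cyclic loess and 27 with array weights. The mean level of the list was 8.65 to 8.84 in A66QC, 8.86 to 9.04 in A75QN and 8.99 to 9.09 in Control. Against the same 3 Control arrays, 29 of the 45 were lower in A66QC, where 8.36% of all probe sets were, and 5 in A75QN, where 5.07% were. In all, A66QC was called against Control at 10.9% of probe sets and A75QN at 7.04%. None of 12 glial genes was called by limma (1 had an unadjusted p under 0.05), and the glial marker repo differed by -0.01 (adjusted p = 0.99, named after its values were seen).

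Among 26 neuropeptide genes 1 was higher in A66QC and 2 in A75QN, where all genes gave 472 and 463 of 11982. SIFa, made by a few brain neurons, was 1.53-fold higher in A75QN (adjusted p = 1.69e-05, limma). It read 8.51, 8.46 and 8.38 there against 7.92, 7.84 and 7.77 in A66QC. Nplp4 was 1.33-fold higher in A75QN (adjusted p = 0.000947) and Lk, leucokinin, 1.15-fold higher in A66QC (adjusted p = 0.00512). Lk did not pass without A66QC replicate 1.

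The eye itself, where the driver acts, gave 1 call among photoreceptor genes and 3 among eye pigment genes in the values as deposited. Over all genes, 472 of 11982 were higher in A66QC and 463 in A75QN. Of 24 photoreceptor and phototransduction genes, only trpl, a light-activated cation channel, was called by limma. It read 11.90, 11.76 and 11.92 in A66QC and 11.52, 11.51 and 11.60 in A75QN (1.25-fold, adjusted p = 0.00191). The list median was 0.00. Without the arrays of outlying spread 4 photoreceptor genes were higher in A66QC, and under quantile and cyclic loess normalization 3 and 7 were higher in A75QN, against 0 as deposited. Among 20 eye pigment genes, st, a transporter of pigment precursors, was 1.32-fold higher in A66QC (adjusted p = 3.17e-05), while the pteridine enzymes se and pr were 1.81-fold and 1.50-fold higher in A75QN (adjusted p = 0.000211 and 0.000154). The se arrays gave 10.34, 10.20 and 10.04 in A75QN and 9.37, 9.31 and 9.34 in A66QC. All 3 pigment genes fell in Control by day 2, where 5 of all 20 did.

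Of 11 clock genes 3, namely tim, vri and per, were higher in A66QC and none in A75QN, where all genes gave 472 and 463 of 11982. tim read 9.34, 9.43 and 9.50 in A66QC and 8.31, 8.13 and 8.34 in A75QN, a 2.24-fold difference (adjusted p = 2.85e-11, limma). vri, a repressor of Clk, read 9.72, 9.70 and 9.94 against 8.59, 8.66 and 8.68 (2.21-fold, adjusted p = 1.16e-08). per read 7.60, 7.61 and 7.64 against 7.31, 7.18 and 7.29 (1.28-fold, adjusted p = 0.000173). For these 3 genes no array of one line reached those of the other. Atro lay near A66QC, with tim at 9.65, 9.41 and 9.74, and Control near A75QN, at 7.98, 8.12 and 8.13. The other 8 clock genes measured did not pass. Among them, named after their values were seen, Clk differed by -0.26 (adjusted p = 0.149), Pdp1 by 0.12 (adjusted p = 0.696) and cry by 0.12 (adjusted p = 0.467). At day 2 the differences were -0.29 for tim, -0.11 for vri and -0.01 for per, none past the threshold. A second tim probe set, near background in both lines, differed by 0.03 at day 0. The hour of collection is not given in the labels used here, and its part in these differences was not tested.

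Cytochrome P450 genes were the most numerous of the lists on the A66QC side: 13 of 83 measured were higher there and 1 lower (Cyp4aa1, by 0.20 on the log2 scale, named after its values were seen), with a median of 0.06. Over all genes, 472 of 11982 were higher in A66QC and 463 in A75QN. After Cyp6a17, the largest were Cyp4p1, at 10.21, 9.96 and 10.20 against 8.72, 9.09 and 9.15 (2.20-fold, adjusted p = 1.63e-09, limma), and Cyp6a2, associated with insecticide metabolism, at 10.38, 10.25 and 10.61 against 9.66, 9.29 and 9.55 (1.88-fold, adjusted p = 3.29e-07). Cyp6a2, Cyp6t1 (1.63-fold), Cyp4ac2 (1.63-fold) and the insecticide-resistance gene Cyp6g1 (1.46-fold) were named after their values were seen. For Cyp4p1 the Atro arrays, at 9.99 to 10.13, lay with A66QC, and the Control arrays, at 8.52 to 8.77, overlapped A75QN. Against the same 3 Control arrays, 11 P450 genes were higher and 9 lower in A66QC, and 4 were higher and 21 lower in A75QN, where the background over all probe sets was 2.50% up and 8.36% down for A66QC, with 1.97% up and 5.07% down for A75QN. Of the 13, 6 were called higher in A66QC at day 2 and 9 at day 14, where 1.39% and 3.53% of all probe sets were. Without the arrays of outlying spread 23 were higher in A66QC.

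The other detoxification families were split, and their counts stand beside 472 higher in A66QC and 463 in A75QN of 11982 genes. Among 34 glutathione transferases, GstE1 read 10.33, 10.20 and 10.32 in A66QC and 9.75, 9.64 and 9.39 in A75QN (1.61-fold, adjusted p = 2.47e-07, limma), and GstE6 was 1.28-fold higher (adjusted p = 0.00171). GstE14, which acts in ecdysteroid synthesis, was 1.57-fold higher in A75QN (adjusted p = 4.47e-05), as was GstZ1 to a lesser degree, named after its values were seen (by 0.25 on the log2 scale). Among 35 UDP-glycosyltransferases, 3 were higher in A66QC and 4 in A75QN, led by Ugt35A1 (1.74-fold, adjusted p = 2.03e-08) and Ugt36F1 (1.39-fold toward A75QN, adjusted p = 7.44e-07). The UDP-glycosyltransferase count on the A75QN side was 2 without A66QC replicate 1, A75QN replicate 1 or A75QN replicate 2. None of 4 metallothioneins was called by limma, and 2 had an unadjusted p under 0.05. Without the arrays of outlying spread, 10 glutathione transferases were higher in A66QC.

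Odorant-binding proteins, secreted carriers of odours and other small molecules, gave 7 of 48 higher in A66QC and 2 higher in A75QN. All genes gave 472 and 463 of 11982. Obp8a read 8.57, 8.38 and 8.47 in A66QC and 7.59, 7.70 and 7.38 in A75QN (1.89-fold, adjusted p = 2.78e-11, limma). Obp18a followed (1.44-fold, adjusted p = 2.55e-05). The 2 in the other direction were Obp56a, named after its values were seen (2.06-fold, adjusted p = 4.47e-05), and Obp83g (1.71-fold, adjusted p = 1.23e-05). None of 166 odorant, gustatory and ionotropic receptors was called by limma, and 8 had an unadjusted p under 0.05.

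Haemocyte genes were called at 5 of 14, where all genes gave 472 higher in A66QC and 463 in A75QN of 11982. PPO1, the prophenoloxidase of crystal cells that drives melanization, read 8.01, 7.91 and 8.23 in A66QC and 7.13, 7.25 and 6.81 in A75QN (1.99-fold, adjusted p = 1.49e-06, limma). PPO2 (1.55-fold), the clotting protein Hml (1.46-fold, adjusted p = 1.10e-05) and the phagocytic receptor eater (1.28-fold) were also higher in A66QC. The phagocytic receptor NimC1 went the other way, at 7.54, 7.41 and 7.06 in A75QN and 6.57, 6.77 and 6.70 in A66QC (1.58-fold, adjusted p = 1.66e-05), where Atro lay with A66QC and Control with A75QN. PPO2 and eater were named after their values were seen. The mean level of the 14 genes was 8.02 to 8.19 in A66QC and 7.84 to 8.06 in A75QN, so the lines overlapped for the list.

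Among 20 antimicrobial peptide genes, 3 Bomanins, small peptides induced by Toll, were higher in A66QC and 1 gene was higher in A75QN. All genes gave 472 and 463 of 11982. BomS4 read 11.57, 11.23 and 11.50 against 10.80, 10.39 and 10.18 (1.97-fold, adjusted p = 2.85e-06, limma), BomS6 was 1.55-fold higher (adjusted p = 0.000335) and BomT2, named after its values were seen, 1.53-fold (adjusted p = 0.00593). The BomT2 arrays of the lines overlapped, at 11.68, 11.03 and 11.73 in A66QC and 11.12, 10.80 and 10.67 in A75QN. Drsl4, of the Drosomycin family, read 10.81, 10.78 and 10.76 in A75QN and 10.03, 9.69 and 9.71 in A66QC (1.97-fold, adjusted p = 2.75e-05). In the pathways above them, 4 of 28 were higher in A66QC, led by PGRP-LE, an intracellular peptidoglycan sensor of Imd (1.63-fold, adjusted p = 2.98e-08), and IKKbeta of the same pathway (1.37-fold, adjusted p = 1.32e-05). psh, a protease upstream of Toll, was 1.67-fold higher in A75QN (adjusted p = 1.01e-06). Without the arrays of outlying spread, 6 peptide genes and 9 pathway genes were higher in A66QC.

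Of 15 fat body genes, 2 were higher in each line, where all genes gave 472 higher in A66QC and 463 in A75QN of 11982. Pepck1, of gluconeogenesis, was 1.72-fold higher in A66QC (adjusted p = 0.00157, limma), at 11.44, 11.08 and 11.65 against 11.01, 10.31 and 10.50, and the perilipin Lsd-1, which coats lipid droplets, 1.49-fold (adjusted p = 0.000102). Outside the list, Jabba, another lipid droplet protein, was 2.06-fold higher in A66QC (adjusted p = 2.85e-11), at 9.79, 9.67 and 9.78 against 8.77, 8.68 and 8.65. Here A75QN stood under Control, at 9.59 to 9.70, and under Atro, at 9.68 to 9.87. Sik3, a kinase of lipid metabolism, was instead raised in A66QC alone, at 9.55, 9.41 and 9.82 against 8.53 to 8.89 on the other 9 arrays (2.05-fold against A75QN, adjusted p = 2.60e-07), but another Sik3 probe set, near background, differed by 0.05. Of 17 sugar and gluconeogenic genes 2 were called, Pepck1 and the hexokinase gene Hex-C, the latter higher in A66QC by 0.44 on the log2 scale, a call lost without A66QC replicate 1. Lsp2 and Sardh were the 2 fat body genes higher in A75QN, Sardh named after its values were seen (1.24-fold, adjusted p = 0.0323). The fat body count on the A75QN side was 0 without A66QC replicate 1 and without A75QN replicate 1, and 1 without A66QC replicate 2, A66QC replicate 3 or A75QN replicate 2.

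Large complexes gave few calls in the values as deposited, and the counts of several changed with the scaling. Over all genes, 472 of 11982 were higher in A66QC and 463 in A75QN. None of 40 proteasome genes was called by limma, 1 had an unadjusted p under 0.05, and 1 was called without A66QC replicate 2. Of 41 cytosolic ribosomal protein genes, RpL15 and RpL40 were higher in A66QC (1.21-fold and 1.19-fold, adjusted p = 0.0454 and 0.0494), the list median was 0.17, and 37 of the 41 differences were positive. The count was 20 without A66QC replicate 2 and 0 without any other 1 of the 6 arrays, and it was 14 under quantile normalization, 28 with array weights, 26 when the arrays of outlying spread were left out and 2 under cyclic loess. Among 71 oxidative phosphorylation genes 1 was called, ATPsynD, 1.22-fold higher in A75QN (adjusted p = 0.0331), and the call was lost without any 1 of the 6 arrays, while 22 were higher in A75QN under quantile and 30 under cyclic loess normalization. Of 69 mitochondrial ribosomal protein genes 2, mRpL48 and mRpS14, were higher in A75QN (1.20-fold and 1.23-fold, adjusted p = 0.00443 and 0.0166), and of 31 V-ATPase genes Vha44 was higher in A75QN (1.30-fold, adjusted p = 0.00373) and VhaAC45RP in A66QC (1.25-fold, adjusted p = 0.0294). The VhaAC45RP call was lost without A66QC replicate 1 or 3 and without each A75QN array, that of mRpS14 without A66QC replicate 2 or 3 or A75QN replicate 2, and that of mRpL48 without A75QN replicate 1. Under quantile and cyclic loess normalization, 6 and 8 V-ATPase genes and 5 and 7 mitochondrial ribosomal protein genes were higher in A75QN.

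Lists for stress gave little, where all genes gave 472 higher in A66QC and 463 in A75QN of 11982. None of 18 heat shock and Turandot genes and none of 13 apoptosis and JNK genes was called by limma, with 2 in each list at an unadjusted p under 0.05. None of 25 gut genes was called either, with 4 at an unadjusted p under 0.05, and 1 of 24 Osiris genes, Osi8, was called, at -0.24, a call lost without any 1 of the arrays except A75QN replicate 3. Both lists were near background, with median levels of 6.03 in each line for gut and 6.08 and 6.10 for Osiris. Among 21 autophagy genes, ref(2)P, the fly p62, and Atg2 were both 1.22-fold higher in A66QC (adjusted p = 0.0292 and 0.0448), and neither passed without A66QC replicate 1 or 3 or without any 1 of the A75QN arrays. The markers of sex did not separate the lines in one direction. The female yolk protein genes Yp1, Yp2 and Yp3, named after their values were seen, differed by 0.07, 0.09 and -0.14 (adjusted p = 0.826, 0.858 and 0.683, limma). Sxl, the sex-determination gene, was 1.33-fold higher in A75QN (adjusted p = 0.0291), a call lost without any 1 of the arrays except A66QC replicate 3, and other Sxl probe sets gave -0.30 and -0.11 and were not called (adjusted p = 0.167 and 0.609).

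Long noncoding RNAs gave 3 calls of 88, all higher in A66QC, where all genes gave 472 higher in A66QC and 463 in A75QN of 11982. The share higher in A66QC was thus close to that over all genes. The median level of the list was 5.94 in A66QC and 5.93 in A75QN, so most were near background. lncRNA:CR43242 was the clearest, at 7.99, 7.88 and 8.01 in A66QC and 7.11, 7.03 and 7.05 in A75QN (1.86-fold, adjusted p = 2.83e-12, limma), with Control and Atro at 7.87 to 8.05. A75QN alone was low. The others were lncRNA:CR31781 (1.27-fold, adjusted p = 0.000612), for which another probe set gave 0.07, and lncRNA:CR30055 (1.17-fold, adjusted p = 0.0204), whose call was lost without A66QC replicate 1 or 3 and without A75QN replicate 1 or 3.

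Part of the day 0 difference was still present in flies that had been kept at 29 °C. The arrays of days 2 and 14 are other samples, but all days share the same fit and its estimate of spread for each probe set. A probe set of low spread is more easily called on every day, and the shares below do not allow for this. At day 2, 540 probe sets were called between the lines (2.88%) and at day 14, 1536 (8.18%). Of the 544 higher in A66QC at day 0, 134 were called the same way at day 2 (24.6%, against 1.39% of all probe sets) and 205 at day 14 (37.7%, against 3.53%). Of the 584 higher in A75QN, 132 were called the same way at day 2 (22.6%, against 1.49%) and 186 at day 14 (31.8%, against 4.66%). The opposite call was made for 2 and 10 of the first group and for 4 and 20 of the second. Without single arrays the day 2 share ran from 16.8% (89 probe sets, without A75QN day 2 replicate 3) to 35.6% on the A66QC side. On the A75QN side it ran from 13.5% (without A66QC day 2 replicate 1) to 32.7%. There 213 were called without A66QC day 2 replicate 3 and 82 without A75QN day 2 replicate 2. The day 14 share ran from 27.6% to 48.3% on the A66QC side and from 22.2% to 36.3% on the A75QN side. Without the arrays of outlying spread the day 2 shares were 16.1% and 37.6%, where 427 and 1464 of all 18769 probe sets were called those ways. At day 14 they were 27.7% and 37.1%, where 957 and 1604 were. On the 6 A75QN arrays of days 2 and 14, 24 poly-A spike-in probe sets averaged 13.2 to 13.4, against 10.2 to 10.8 on the other 30 arrays; the part of this in the later comparisons was not tested. At day 0 they averaged 10.3 to 10.8 in A66QC and 10.3 to 10.5 in A75QN.

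The genes called the same way on all 3 days numbered 77 higher in A66QC and 74 higher in A75QN. Tektin-C gave -2.21, -2.18 and -2.19 on the log2 scale at days 0, 2 and 14. Cyp6a17 gave 2.18, 1.49 and 1.41, Sik3 1.04, 1.10 and 1.17, and CG7129 1.03, 0.98 and 0.98, the last with another probe set, near background, at -0.01. lncRNA:CR43242 gave 0.90, 1.04 and 0.79. Named after their values were seen, Map205, a microtubule-associated protein, gave 0.91, 0.91 and 0.69, and jim, a zinc-finger protein, -0.81, -0.76 and -0.70. Hipk, a protein kinase also named after its values were seen, gave -1.01 at day 0 and -0.83 at day 2 and was called the same way at day 14. Of the 12 genes with the largest differences toward A66QC, 9 were called the same way at day 2 and 8 at day 14.

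The change from day 0 in the line difference passed for 6 of the 12 genes largest toward A66QC by day 2 and for 6 by day 14. For the 12 largest toward A75QN it passed for 9 by day 2 and 10 by day 14, and the contrast between the sides was not tested. Of the 12 toward A75QN, only Tektin-C was called the same way at day 2 and at day 14, and 10 fell in Control by day 2. None of the 24 cuticle genes was called the same way at day 2, and 2 were at day 14 with 1 called the other way. Over all probe sets, the change in the line difference passed for 146 probe sets by day 2 (0.778%, with 0.570% moving up and 0.208% down) and for 453 by day 14 (2.41%, with 1.39% up and 1.03% down). For 15 of the 24 cuticle genes it passed by day 2, and for 15 by day 14. The cuticle genes and the 12 largest on each side were picked by the day 0 difference, which the change subtracts. A change toward 0 was thus favoured in advance, and the shares over all probe sets are not a like comparison. Vajk3 went from -1.54 at day 0 to 0.68 at day 2 and 0.03 at day 14, a change of 2.22 by day 2 (adjusted p = 5.56e-05, limma). tim went from 1.16 to -0.29 and -0.44, a change of -1.45 by day 2 (adjusted p = 4.09e-09). Lsp2 crossed sides, from -1.94 to 2.29 at day 14.

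**Figure D4:**
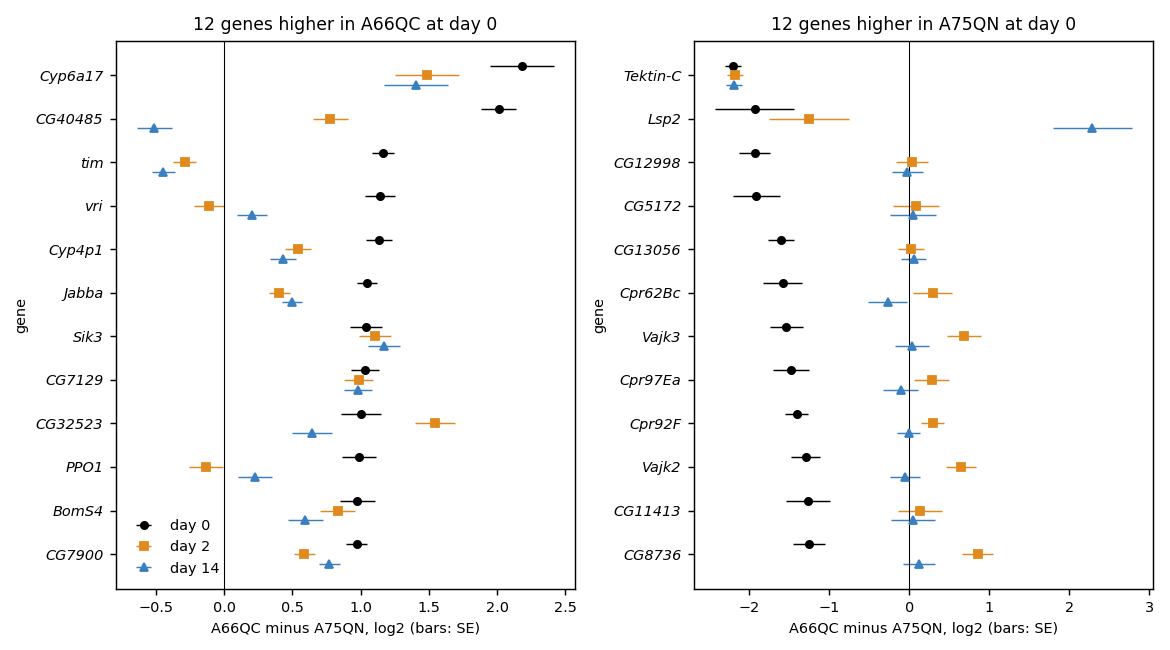
Line difference (A66QC minus A75QN, log2) at days 0, 2 and 14 for the 12 genes with the largest day 0 differences in each direction. Points are estimates from 3 and 3 arrays per day and bars are their SE. Tektin-C, Cyp6a17, Sik3 and CG7129 kept their sign and call on all 3 days, while the cuticle genes and tim did not.

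Called genes had a neighbour called the same way more often than genes in general, although most had none. Of 471 genes with a position that were higher in A66QC, 93 had a neighbour called the same way (19.7%, against 7.65% of all 11893 genes with such a neighbour), and of 461 higher in A75QN, 62 had one (13.4%, against 7.55%). The longest run held 5 neighbouring genes on 3R, Nepl13, Nepl14, Nepl15, CG13841 and CG43091, all higher in A66QC and named after their values were seen. Nepl15, of the neprilysin-like family, was the largest of them (1.41-fold, adjusted p = 6.19e-05, limma), and the others were 1.18-fold to 1.27-fold higher. Runs of 3 included Vajk1, Vajk2 and Vajk3 on 2L and Cpr76Bb, Cpr76Bc and Cpr76Bd on 3L, toward A75QN. The share of genes called in either direction was similar on the main arms, from 7.34% on 3L to 8.49% on X. The directions were less even. Genes higher in A66QC and in A75QN numbered 102 and 62 on 2L, 111 and 89 on 2R and 69 and 103 on 3L. On 3R they numbered 116 and 115, and on X 70 and 89.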

How the data were processed

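The authors deposited log2 expression values, 1 per probe set for each of 36 one-colour Affymetrix arrays. The submitters' processing notes name R 2.11.0. Background correction, summarization and normalization, if any, were not given in the sources used here. Arrays have no read depth, and their number limits the precision. Of 18952 probe sets, 183 controls were removed and 18769 tested. By the platform annotation 13647 carry 1 symbol, 402 several and 4720 none, and 13544 took their current RefSeq symbol through the gene identifier. Genes whose symbol is a lethal allele go by their CG number. For each of 11982 genes the probe set with the highest mean level was taken. A few genes were not analysed here.

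One linear model with a mean per group was fitted to all arrays in limma 3.58.1 (R 4.3.3), with 24 residual and 6.49 prior degrees of freedom. Benjamini-Hochberg adjustment ran over all tested probe sets, a call is an adjusted p below 0.05, and the adjusted p-values printed come from this model. Differences are A66QC minus A75QN.

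The members, gene lists and tests were chosen with earlier results of these data known. The rule for naming took the 12 genes of largest difference in each direction among those called without overlap of the arrays, up to 3 called genes per list by adjusted p, and Gug. Lists are described by counts and medians, with no set test.

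Alternatives were quantile and cyclic loess normalization, array weights, a filter for brighter probe sets, a prior that is trended and robust, a fit of the compared arrays only, the replicate number as a block, and each array left out in turn. A fit leaving out the 6 arrays whose SD was 5% or more off their group's median, and repeats of the overlaps, were chosen after seeing the data. The model was tested on simulated data. Same-numbered arrays of both lines deviated together with r of 0.05, 0.12 and 0.07, so the numbers were not taken as pairs. Plots were made in Python 3.11.15 and matplotlib 3.10.9.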

Additional observations from a re-analysis of the deposited data

Results flagged for a closer look

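For the genes below, the day 0 difference between the lines (A66QC minus A75QN, log2) changed with the day by a test of the change itself in the same limma model, with adjusted p from 4.78e-11 to 0.0385. All 6 A75QN arrays of days 2 and 14 carry the higher spike-in levels, and the part of this in the changes was not tested. The genes were named by their day 0 difference, which the change subtracts, so a change toward 0 was favoured in advance.

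Cuticle protein genes that were higher in A75QN at day 0 moved toward or past 0. By day 2 and day 14 the changes were 2.22 and 1.57 for Vajk3, 1.94 and 1.24 for Vajk2, 1.88 and 1.31 for Cpr62Bc, 1.76 and 1.37 for Cpr97Ea, 1.70 and 1.40 for Cpr92F, 1.21 and 1.23 for Cpr64Aa, and 0.56 and 0.61 for Cpr47Ea. For genes outside that list they were 1.96 and 1.90 for CG12998, 2.00 and 1.96 for CG5172, 1.63 and 1.66 for CG13056, and 2.11 and 1.38 for CG8736. The chitin deacetylases verm and serp changed by 1.12 and 1.30 by day 2. Other genes first higher in A75QN changed by 0.74 and 1.12 (Act87E), 0.59 and 0.50 (SIFa) and 1.13 and 0.82 (Obp83g) by days 2 and 14, and by day 14 Nplp4 changed by 0.62, se by 0.83 and Lsp2 by 4.22. Drsl4 changed by -0.89 by day 14, so that A75QN lay further above A66QC.

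Genes higher in A66QC at day 0 lost ground. The clock genes changed by -1.45 and -1.61 (tim), -1.25 and -0.94 (vri) and -0.37 and -0.42 (per) by days 2 and 14. Over the same days 1 CG40485 probe set changed by -1.23 and -2.52, where another changed by -0.0025 (adjusted p = 0.999) and -1.02, PPO1 by -1.12 and -0.76, Obp8a by -0.63 and -0.82, Cyp4p1 by -0.59 and -0.70, Jabba by -0.64 and -0.55, and st by -0.55 and -0.54. By day 14 the changes were -0.35 for Lk, -0.34 for IKKbeta, -0.49 for lncRNA:CR31781 and -0.40 for lncRNA:CR30055.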

How the results depend on the processing

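The number of probe sets called rested on the scaling and on single arrays. For the day 0, 2 and 14 differences and the changes to days 2 and 14, in that order, quantile normalization gave 2752, 1702, 3131, 506 and 1361 and cyclic loess 2544, 1599, 2999, 479 and 1194, while leaving out the arrays of outlying spread, chosen after seeing the data, gave 2027, 1891, 2561, 872 and 1208. Array weights gave 2883 at day 0, 173 at day 2 and 1161 for the change to day 14. Without single arrays the counts ran from 670 to 1252, from 293 to 899, from 1018 to 1286, from 105 to 166 and from 320 to 516. The share higher in A66QC at day 0 was 65.9% without A66QC replicate 2 and 34.8% without A66QC replicate 3; without the outlying arrays it was 22.6% at day 2, against 48.1%, and 20.4% for the change to day 2, against 73.3%. With a replicate block the counts were 1235, 609, 1692, 155 and 482. All 1128 probe sets called at day 0 were also called after quantile normalization and 1125 after cyclic loess. Of 77 named genes called, 56 kept the call under every alternative run and on any other probe set of the gene. The other 21 lost it under an alternative or on another probe set. For CG40485, tim, Sik3, CG7129, cac and lncRNA:CR31781 only another probe set differed, and every alternative run kept the call. Other probe sets of CG40485, CG7129 and cac gave -0.32, -0.013 and 0.023, the opposite sign. The causes were not tested. Low probe sets read close to background limit what can be seen of faint genes.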

Other observations

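Genes outside the lists were examined after their values were seen. Arc1 and Hr38, which neuronal activity regulates in flies, were both higher in A75QN. Arc1 read 10.16, 10.02 and 10.29 there and 9.35, 8.79 and 9.36 in A66QC (adjusted p = 3.25e-05, limma). Hr38 read 7.81, 7.75 and 8.04 against 6.98, 6.96 and 6.98 (adjusted p = 3.52e-05), and it was highest in Atro, at 9.33, 8.31 and 8.68. AkhR, the receptor of the hormone that mobilizes fat body stores, was higher in A66QC, at 10.12, 9.79 and 10.25 against 9.44, 9.30 and 9.33 (adjusted p = 8.31e-05). Prx6c, of the peroxiredoxins, was higher in A75QN, at 10.29, 10.18 and 9.81 against 8.69, 8.87 and 9.04 (adjusted p = 2.64e-08).

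CG33296 gave -1.12, -0.94 and -1.27 at days 0, 2 and 14, with A66QC and Atro near 7 or below at day 0 and Control between 7.54 and 8.07. CG30371 was uneven within A75QN at day 0, at 6.20, 6.77 and 7.25, and gave -0.75, -2.15 and -1.29 over the 3 days.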
